A study of Mus musculus with 17 samples.

Results

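Small nucleolar RNA host genes are long non-coding genes whose introns carry small nucleolar RNAs (snoRNAs). The genes described here are Snhg11, Snhg17, Snhg1, Snhg3, Snhg5, Snhg6, Snhg8, Snhg12 and Gas5, and every probe set that names exactly 1 of these symbols was taken. That gave 10 probe sets for 4 of the 9 genes, out of 21789 single-gene probe sets for 19938 genes on the array. Snhg17 had 3 probe sets, Snhg11 had 2, Snhg5 had 1 and Gas5 had 4. Snhg8 was named only by a probe set shared with another symbol, and Snhg1, Snhg3, Snhg6 and Snhg12 were named by none. These last 4 are described only through snoRNAs that lie inside them, and Snhg8 only by its promoter.

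The study profiled RNA of pancreatic islets on 17 arrays in 5 genotypes, all from untreated mice 2 months old. In Men1 RIP-Cre mice (3 arrays) floxed Men1 is removed by Cre recombinase, in Rbp2 RIP-Cre mice (4 arrays) floxed Rbp2, also called Kdm5a, and in Men1 Rbp2 RIP-Cre mice (4 arrays), called double knockout below, both genes. RIP-Cre mice (3 arrays) carry the Cre transgene alone and wt mice (3 arrays) are labelled wild type. All 3 knockout groups therefore share the RIP-Cre transgene with the RIP-Cre group. RIP is the rat insulin promoter, so deletion is directed to beta cells while the other cells of the islet keep the genes. Men1 codes for menin, a partner of histone H3K4 methyltransferases, and Rbp2 is a demethylase of the same mark. Snhg11 in Men1 RIP-Cre against RIP-Cre and Snhg17 for Rbp2 RIP-Cre set against RIP-Cre were chosen by their log2 level, as large falls in those comparisons, and the other genes were added by name. The values of those picks are given as a description, with no p-value, also where other comparisons share the same arrays, and nothing is read from the calls they enter.

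A host gene transcript is spliced, its exons leave as a long RNA that often codes for no protein, and the snoRNAs are trimmed out of the introns. Box C/D snoRNAs guide methylation of ribosomal RNA and box H/ACA snoRNAs guide its pseudouridylation, while a few such as U17 (Snora73) and U22 (Snord22) take part in cutting the ribosomal RNA precursor. Many host transcripts, Gas5 among them, begin with a run of C and T at their start, the 5′ terminal oligopyrimidine, which ties their translation and decay to growth signals, and the spliced RNA is broken down by nonsense-mediated decay.

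The annotated starts are shown because Snhg11 and Snhg17, the members with the largest falls, start 14.2 kb apart on opposite strands of chromosome 2, and because the run of C and T is the feature for which host genes are known. Each sequence holds 250 bases before and 50 bases from the annotated start (RefSeq, GRCm38.p6), 5′ to 3′ on the gene's own strand, and the capitals mark the longest run of C and T that touches the 15 bases on either side of the start. They come from chr2:158375463-158375762 on the plus strand for Snhg11, chr2:158361460-158361759 on the minus strand for Snhg17, chr1:161034916-161035215 on the plus strand for Gas5 and chr9:88522848-88523147 on the minus strand for Snhg5.
Snhg11: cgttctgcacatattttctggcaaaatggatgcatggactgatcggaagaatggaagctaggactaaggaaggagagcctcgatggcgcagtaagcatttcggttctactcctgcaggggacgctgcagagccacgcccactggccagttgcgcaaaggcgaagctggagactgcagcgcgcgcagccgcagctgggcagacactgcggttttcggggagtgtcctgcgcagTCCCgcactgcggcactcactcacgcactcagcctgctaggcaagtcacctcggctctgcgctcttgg
Snhg17: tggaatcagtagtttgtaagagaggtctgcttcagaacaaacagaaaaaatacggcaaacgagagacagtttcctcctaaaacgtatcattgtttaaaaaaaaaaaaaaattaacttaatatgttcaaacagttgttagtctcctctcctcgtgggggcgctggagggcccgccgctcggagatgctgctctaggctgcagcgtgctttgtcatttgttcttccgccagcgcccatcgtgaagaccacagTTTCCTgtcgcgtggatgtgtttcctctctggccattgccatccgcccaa
Gas5: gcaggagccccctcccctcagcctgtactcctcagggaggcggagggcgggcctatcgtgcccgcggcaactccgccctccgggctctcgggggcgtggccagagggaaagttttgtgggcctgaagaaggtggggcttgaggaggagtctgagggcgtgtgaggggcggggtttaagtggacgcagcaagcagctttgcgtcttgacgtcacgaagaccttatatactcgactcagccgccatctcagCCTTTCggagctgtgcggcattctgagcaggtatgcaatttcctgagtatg
Snhg5: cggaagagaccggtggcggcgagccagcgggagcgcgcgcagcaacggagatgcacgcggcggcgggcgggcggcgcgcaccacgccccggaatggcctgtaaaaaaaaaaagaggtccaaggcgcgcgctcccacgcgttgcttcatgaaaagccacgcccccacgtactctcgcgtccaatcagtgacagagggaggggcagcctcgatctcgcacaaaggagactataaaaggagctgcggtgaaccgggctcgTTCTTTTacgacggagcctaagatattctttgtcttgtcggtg
In Snhg17 the run TTTCCT began at the annotated first base, in Gas5 the run CCTTTC began at the base before it, and in Snhg5 the run TTCTTTT began at base 8. Snhg11 held no run longer than 4 in that window. A second annotated start of Snhg17 had a run of 7 and that of Gas5 a run of 3. Of the 8 host genes other than Snhg6, 7 had a run of at least 5 in that window, against 55.7% of all 32851 promoters of the same length. Such a run need not begin at the first base. Snhg17 and Gas5, with a second start, count by either start here and below, while the share is per promoter. On both strands, GGGCGG was found in 5 of these 8 (35.7% of all promoters), TATAAA in 4 of 8 (13.6%), CCAAT in 3 of 8 (37.4%) and CACGTG in 0 of 8 (7.15%). These letter counts are a description of the windows and of no factor's binding.

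The deposited values are on a log2 scale. The median over all 35512 probe sets ran from 7.51 to 7.54 in Men1 RIP-Cre arrays, 7.47 to 7.65 in Rbp2 RIP-Cre, 7.56 to 7.60 in the double knockout, 7.62 to 7.84 in RIP-Cre and 7.63 to 7.77 in wt. The median log2 fold change of all probe sets was -0.19, -0.11 and -0.13 for Men1 RIP-Cre, for Rbp2 RIP-Cre and for the double knockout against RIP-Cre, and a member's change relative to that median is given where it matters. The brightest 10% of probe sets shifted by 0.20, 0.21 and 0.22 in the same comparisons and the dimmest 10% by -0.18, -0.22 and -0.23. Men1 itself was lower by 1.06 log2 in Men1 RIP-Cre (limma adjusted p = 0.000164) and by 0.77 in the double knockout (limma adjusted p = 0.000727), and 0.73 higher in Rbp2 RIP-Cre (limma adjusted p = 0.00777). Kdm5a did not pass in Rbp2 RIP-Cre (log2 fold change -0.22, limma adjusted p = 0.169) or in the double knockout (-0.02), and since the place of its probe set relative to the deleted part is not given, it does not check the Rbp2 labels. The islet endocrine markers Ins2, Iapp, Chga, Gcg, Sst and Ppy averaged 13.37 to 13.85 in all arrays. In RNA of whole islets fewer cells of a type and less RNA per cell cannot be told apart. The labels do not say that arrays of a group are separate animals, so a p-value here reflects array-to-array spread, which may be technical.

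Snhg11 is a nuclear RNA that is abundant in mouse neurons and hosts 2 annotated snoRNA genes. Its first probe set, 10478066, read 7.21, 7.26 and 7.34 in Men1 RIP-Cre, 9.19, 9.02, 9.26 and 8.86 for the Rbp2 RIP-Cre arrays, 9.42, 8.31, 8.66 and 8.18 in the double knockout, 8.80, 8.65 and 9.44 in RIP-Cre, and 9.14, 8.75 and 9.25 in wt. The 3 Men1 RIP-Cre arrays were the lowest of the 17 and overlapped with no other group, while the other 4 groups overlapped with each other. The mean in Men1 RIP-Cre was 7.27 ± 0.07 against 8.96 ± 0.42 in RIP-Cre (SD, n = 3 each), a log2 fold change of -1.69 (SE 0.27), or 3.23-fold lower, and -1.50 relative to the median of all probe sets. The second probe set, 10478073, read 6.63, 6.71 and 6.48 in Men1 RIP-Cre, 6.74, 7.05, 7.02 and 6.89 for the Rbp2 RIP-Cre arrays, 6.98, 6.89, 7.02 and 6.97 in the double knockout, 7.16, 7.21 and 7.49 in RIP-Cre, and 6.94, 7.08 and 7.5 in wt. Here too the Men1 RIP-Cre arrays lay below every other array, and the log2 fold change against RIP-Cre was -0.68 (SE 0.14), 1.60-fold lower. Over the 17 arrays the 2 probe sets had a Pearson r of 0.69.

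When Rbp2 was removed together with Men1, Snhg11 did not stand at the Men1 RIP-Cre level. The 4 double knockout arrays lay above the 3 Men1 RIP-Cre arrays at both probe sets, and these groups did not overlap at 4 of the 10 host gene probe sets, against 17.7% of all. At 10478066 the mean was 8.64 ± 0.56 (n = 4) in the double knockout against 7.27 in Men1 RIP-Cre, a log2 difference of 1.37 (SE 0.25), and at 10478073 it was 6.96 ± 0.05 against 6.61, a difference of 0.36 (SE 0.13). These are descriptions, because the Men1 RIP-Cre arrays are those on which Snhg11 was picked. The choice named neither the double knockout nor the wt arrays, and between these Snhg11 did not pass at 10478066 (log2 fold change -0.40, SE 0.25, limma adjusted p = 0.228) or at 10478073 (-0.21, SE 0.13, limma adjusted p = 0.22). The 10478066 difference passed when double knockout 1, the highest double knockout array, was left out (-0.66, limma adjusted p = 0.0275). In Rbp2 RIP-Cre against wt the differences were 0.04 (SE 0.25, limma adjusted p = 0.928) and -0.25 (SE 0.13, limma adjusted p = 0.189). Men1 itself read 8.87, 8.54, 8.64 and 8.46 in the double knockout, above 8.14, 8.43 and 8.42 in Men1 RIP-Cre. That difference was 0.30 (SE 0.11, limma adjusted p = 0.296), and its part in the Snhg11 values was not tested.

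Markers of other islet-associated cells were read in the Men1, the Rbp2 and the double knockout against RIP-Cre. Of all probe sets 47.3%, 9.98% and 30.4% passed there, and 30.5%, 4.73% and 17.3% fell. Schwann cell markers Sox10 and Cdh19 averaged 6.71 to 6.77 in Men1 RIP-Cre, 6.91 to 7.52 in Rbp2 RIP-Cre, 6.89 to 7.03 in the double knockout, 7.40 to 8.02 in RIP-Cre and 7.24 to 7.58 in wt. Of the 4 measured neuron markers, Th rose and Prph and Chat fell in Men1 RIP-Cre, and the list averaged 7.52 to 7.67 there, 7.33 to 7.70 in Rbp2 RIP-Cre, 7.43 to 7.69 in the double knockout, 7.55 to 7.88 in RIP-Cre and 7.67 to 7.91 in wt. Duct markers fell at 3 of 5 in Men1 RIP-Cre and at 1 of 5 in both other knockouts, and acinar, endothelial, mesenchymal, macrophage and lymphocyte markers passed at 0 to 2 of their 4 or 5 probe sets in each of the 3 comparisons. The part of any of these cell types in the Snhg11 or Gas5 values was not tested.

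**Figure D1:**
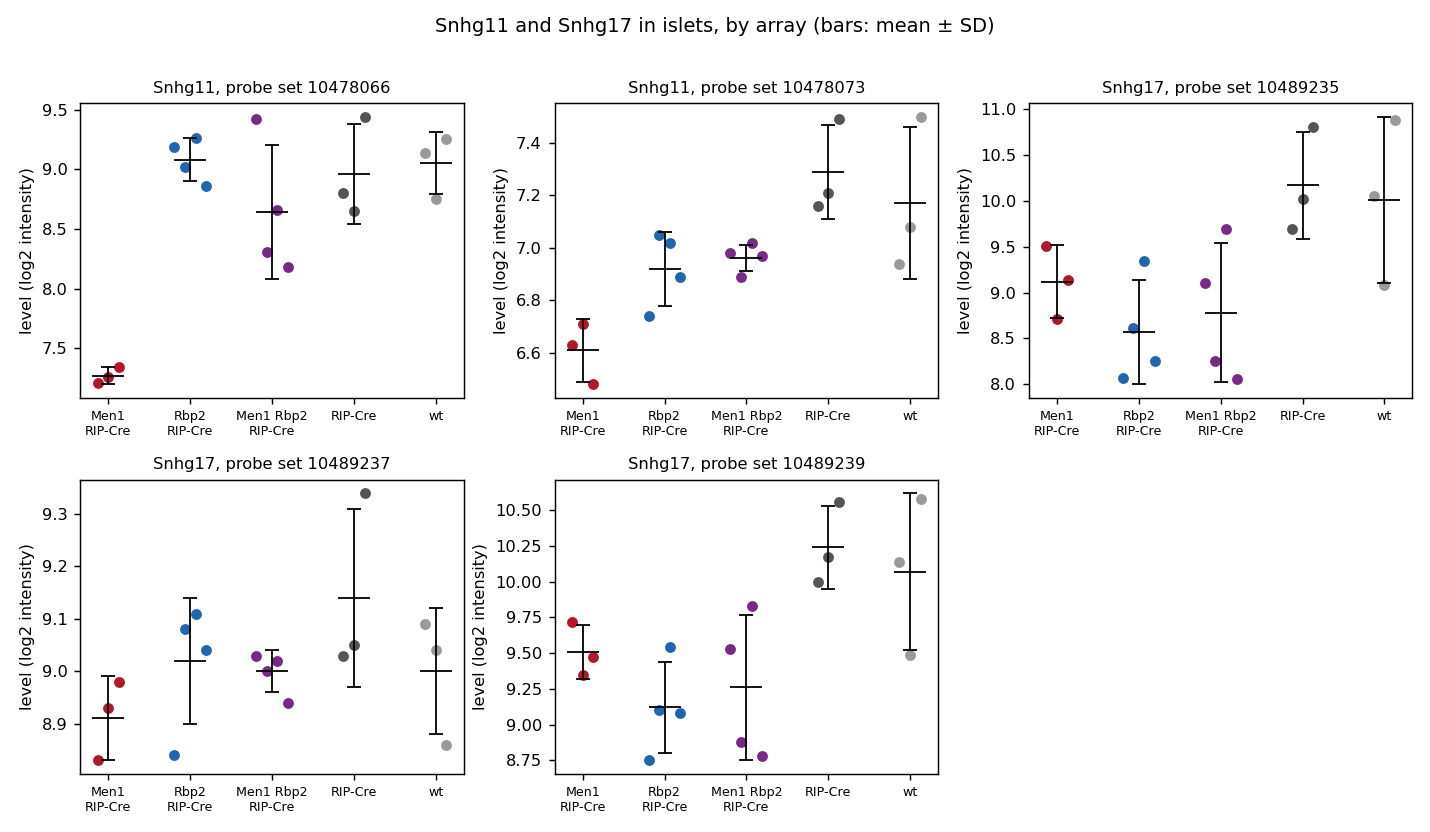
Level (log2, as deposited) of the 5 probe sets of Snhg11 and Snhg17 in each of the 17 arrays, by genotype, with points for arrays and bars for mean ± SD. At Snhg11 10478066 the 3 Men1 RIP-Cre arrays sit between 7.21 and 7.34 with all other arrays at 8.18 or above, while at Snhg17 10489235 and 10489239 all 3 knockout groups average below both control groups and single arrays spread widely.

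Snhg17, the divergent neighbour of Snhg11, also holds 2 annotated snoRNA genes. Probe set 10489239 read 9.72, 9.35 and 9.47 in Men1 RIP-Cre, 8.75, 9.10, 9.54 and 9.08 for the Rbp2 RIP-Cre arrays, 9.53, 8.88, 9.83 and 8.78 in the double knockout, 10, 10.17 and 10.56 in RIP-Cre, and 10.14, 9.49 and 10.58 in wt. All 11 knockout arrays lay below the 3 RIP-Cre arrays, but wt 2, at 9.49, lay inside the range of every knockout group. From the lowest mean up, the order was Rbp2 RIP-Cre (9.12 ± 0.32), the double knockout (9.26 ± 0.51), Men1 RIP-Cre (9.51 ± 0.19), wt (10.07 ± 0.55) and RIP-Cre (10.24 ± 0.29), and each neighbouring pair in that order overlapped. Between Rbp2 RIP-Cre and RIP-Cre arrays the log2 fold change was -1.13 (SE 0.28), or 2.18-fold lower, and -1.01 relative to the median of all probe sets. It was -0.73 (SE 0.30) in Men1 RIP-Cre and -0.99 (SE 0.28) in the double knockout against the same RIP-Cre arrays.

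Probe set 10489235 of Snhg17 read 9.51, 8.71 and 9.14 in Men1 RIP-Cre, 8.07, 8.61, 9.35 and 8.25 for the Rbp2 RIP-Cre arrays, 9.11, 8.25, 9.69 and 8.06 in the double knockout, 9.69, 10.02 and 10.81 in RIP-Cre, and 10.05, 9.08 and 10.89 in wt. It followed 10489239 from array to array (r 0.99 over 17 arrays), and its log2 fold changes against RIP-Cre were -1.05 (SE 0.50), -1.60 (SE 0.46) and -1.40 (SE 0.46) in the Men1, the Rbp2 and the double knockout. Probe set 10489237 read between 8.83 and 9.34 in all 17 arrays, with r of 0.35 and 0.36 to the other 2, and changes of -0.23, -0.12 and -0.14, each within 0.04 of the median of all probe sets. The size of the Snhg17 difference rests on which probe set is read, and their places in the transcript are not given.

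The comparison of the double knockout with wt uses knockout and control arrays that the choice of Snhg17 did not name. There 10489239 was lower by 0.82 log2 (SE 0.28, 1.76-fold, limma adjusted p = 0.0463), 10489235 did not pass (-1.23, SE 0.46, limma adjusted p = 0.0617), and 10489237 showed 0.00 (SE 0.10, limma adjusted p = 0.996). The 4 double knockout arrays overlapped the 3 wt arrays at all 3 probe sets. With the replicate number as a block over all 17 arrays, both 10489239 (-0.73, limma adjusted p = 0.0359) and 10489235 (-1.06, limma adjusted p = 0.0345) passed. The count of host gene probe sets called in this comparison then went to 2, against 1 without the block. The 10489235 difference passed without wt 2 (-1.69, limma adjusted p = 0.017) or double knockout 3 (-1.53, limma adjusted p = 0.0285). The call at 10489239 stood near the threshold. It was lost when wt 3 (-0.56, limma adjusted p = 0.223), wt 1 (-0.78, limma adjusted p = 0.122), double knockout 4 (-0.66, limma adjusted p = 0.13) or double knockout 2 (-0.69, limma adjusted p = 0.119) was left out, and, at an unchanged -0.82, when RIP-Cre 1 or 2, Men1 RIP-Cre 1, 2 or 3, or Rbp2 RIP-Cre 2 or 4 was (limma adjusted p between 0.0518 and 0.0578). In Men1 RIP-Cre against wt, 10489239 was -0.56 (SE 0.30, limma adjusted p = 0.138) and 10489235 was -0.89 (SE 0.50, limma adjusted p = 0.149).

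Gas5 is a growth-arrest RNA whose introns hold 8 annotated snoRNA genes in mouse, and it showed a different direction at different probe sets. Probe set 10351035 read 7.32, 7.08 and 7.27 in Men1 RIP-Cre, 6.49, 6.0, 6.12 and 5.89 for the Rbp2 RIP-Cre arrays, 6.13, 6.83, 6.56 and 6.80 in the double knockout, 5.99, 6.44 and 6.03 in RIP-Cre, and 5.98, 6.28 and 6.31 in wt. Every Men1 RIP-Cre array lay above every other array. It rose by 1.07 log2 in Men1 RIP-Cre against RIP-Cre (SE 0.19, 2.10-fold, limma adjusted p = 0.00146) and by 1.03 against wt (limma adjusted p = 0.00185). Probe set 10351039 read 5.04, 4.67 and 5.01 in Men1 RIP-Cre, 3.32, 3.70, 3.46 and 3.86 for the Rbp2 RIP-Cre arrays, 4.08, 4.09, 4.45 and 4.56 in the double knockout, 3.50, 4.14 and 3.80 in RIP-Cre, and 3.81, 3.84 and 4.14 in wt. Again the Men1 RIP-Cre arrays were the highest of all, with a rise of 1.09 against RIP-Cre (SE 0.19, 2.13-fold, limma adjusted p = 0.00122) and of 0.98 against wt (limma adjusted p = 0.00223). Both calls were kept with each of the 17 arrays left out in turn, but with the median of each array as a covariate the one at 10351035 was lost (0.69, limma adjusted p = 0.111). These are dim probe sets, whose mean levels stand at percentiles 22.8 and 2.42 among all probe sets, and they followed each other over the 17 arrays with an r of 0.83.

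The other Gas5 probe sets did not rise. Probe set 10351037, at percentile 98.2 of mean level, read 11.42, 11.35 and 11.50 in Men1 RIP-Cre, 11.31, 11.60, 11.51 and 10.65 for the Rbp2 RIP-Cre arrays, 11.75, 11.13, 11.63 and 10.67 in the double knockout, 11.97, 11.92 and 11.90 in RIP-Cre, and 11.84, 11.75 and 11.97 in wt. All 11 knockout arrays lay below the RIP-Cre arrays, the fourth arrays of Rbp2 RIP-Cre and of the double knockout lowest of all, yet limma's test was not passed in Men1 RIP-Cre (-0.51, SE 0.25, adjusted p = 0.109), Rbp2 RIP-Cre (-0.66, SE 0.24, adjusted p = 0.0757) or the double knockout (-0.64, SE 0.24, adjusted p = 0.0546). The last of these passed without Rbp2 RIP-Cre 4 (-0.64, limma adjusted p = 0.0299), double knockout 1 (-0.79, limma adjusted p = 0.0254) or double knockout 3 (-0.75, limma adjusted p = 0.0382), and against wt it passed without double knockout 1 (-0.71, limma adjusted p = 0.0412). These calls turned on the normalization too. After quantile normalization 10351037 passed in the Men1 (-0.82, limma adjusted p = 0.0319), the Rbp2 (-0.91, limma adjusted p = 0.0467) and the double knockout (-0.91, limma adjusted p = 0.0212). After cyclic loess it passed in Men1 RIP-Cre (-0.78, limma adjusted p = 0.0481) and the double knockout (-0.93, limma adjusted p = 0.0242), and without the fourth arrays in Men1 RIP-Cre (-0.51, limma adjusted p = 0.0151). With both control groups pooled it passed in the Rbp2 (-0.62, limma adjusted p = 0.0323) and the double knockout (-0.60, limma adjusted p = 0.0236). Probe set 10351026 read 9.42, 9.53 and 10.04 in Men1 RIP-Cre against 9.44, 9.97 and 9.70 in RIP-Cre, and its changes in the 3 comparisons were -0.04, -0.08 and 0.01 (SE 0.21, 0.20 and 0.20). Between the rising pair and the other Gas5 probe sets r ran from -0.29 to 0.12.

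In the double knockout the rising pair of Gas5 probe sets stood between Men1 RIP-Cre and RIP-Cre. Probe set 10351035 averaged 6.58 ± 0.32 in the double knockout (n = 4), against 7.22 ± 0.13 in Men1 RIP-Cre and 6.15 ± 0.25 in RIP-Cre (n = 3 each). The difference from Men1 RIP-Cre was -0.64 (SE 0.18, limma adjusted p = 0.159) and that from RIP-Cre 0.43 (SE 0.18, limma adjusted p = 0.0831), so neither passed. The difference from RIP-Cre passed without RIP-Cre 2 (0.57, limma adjusted p = 0.043) or double knockout 1 (0.58, limma adjusted p = 0.0208), and that from wt (0.39, limma adjusted p = 0.114) passed without double knockout 1 (0.54, limma adjusted p = 0.0298). Probe set 10351039 gave -0.61 (SE 0.18, limma adjusted p = 0.181) and 0.48 (SE 0.18, limma adjusted p = 0.0527). The second of these passed when RIP-Cre 2 (0.65, limma adjusted p = 0.0246), Rbp2 RIP-Cre 1 (0.48, limma adjusted p = 0.0467) or double knockout 1 (0.55, limma adjusted p = 0.0426) was left out. After cyclic loess the double knockout passed against RIP-Cre at 10351035 (0.64, limma adjusted p = 0.0456) and at 10351039 (0.80, limma adjusted p = 0.00437), with pooled controls at both (0.41 and 0.42, limma adjusted p = 0.0371 and 0.0313), and after quantile normalization at 10351039 (0.53, limma adjusted p = 0.0201). Against Rbp2 RIP-Cre the double knockout was higher in every array at 10351039, by 0.71 (SE 0.16, limma adjusted p = 0.082), and the 2 groups overlapped at 10351035 (0.45, SE 0.17, limma adjusted p = 0.312). Men1 itself stood 0.30 higher in the double knockout than in Men1 RIP-Cre (SE 0.11, limma adjusted p = 0.296). The part of that difference in the Gas5 values was not tested.

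**Figure D2:**
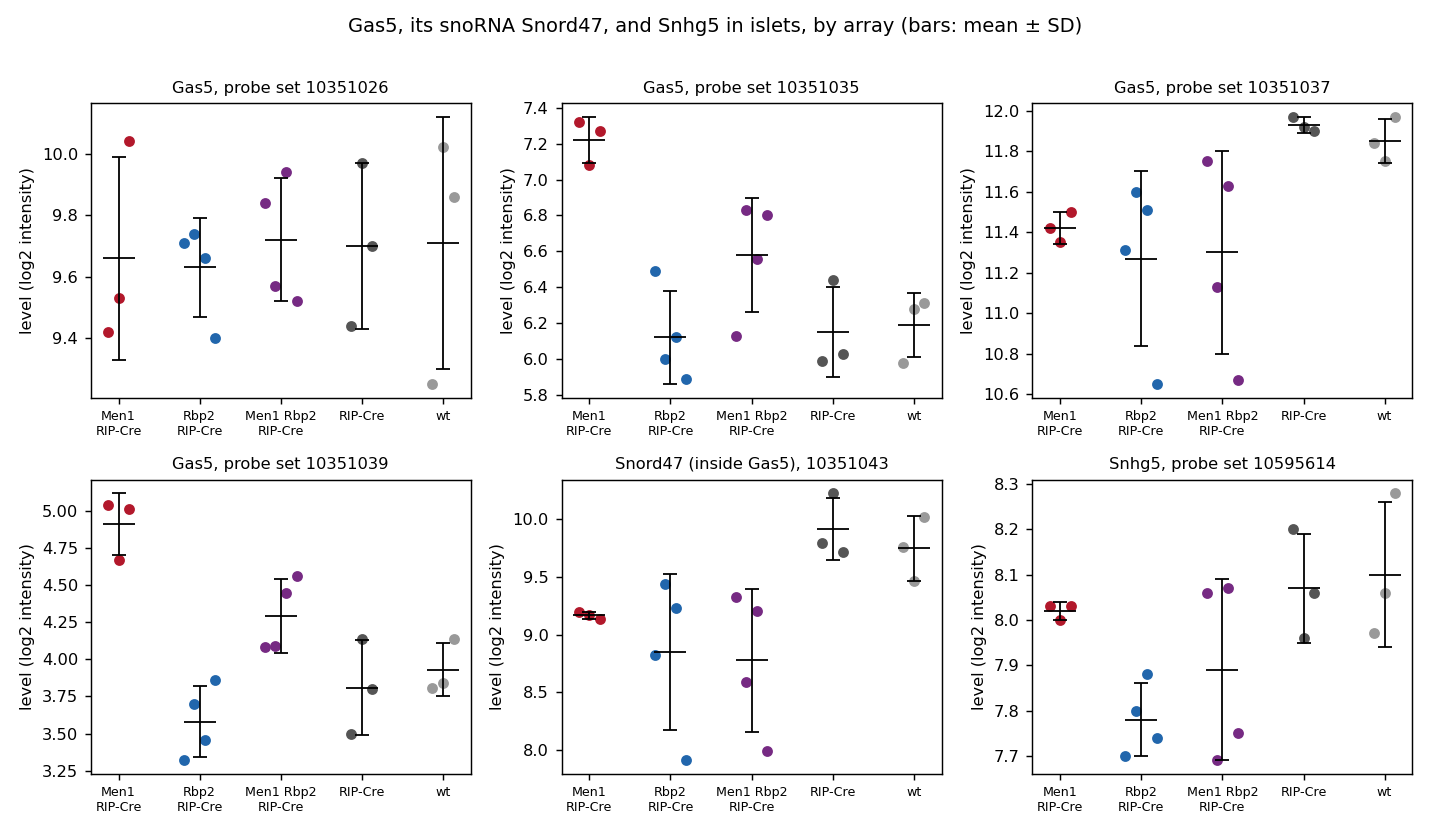
Level (log2, as deposited) of the 4 Gas5 probe sets, of Snord47, a snoRNA inside Gas5, and of Snhg5 in each array, by genotype, with points for arrays and bars for mean ± SD. The Men1 RIP-Cre arrays are the highest at 10351035 and 10351039, whereas at 10351037 and Snord47 the fourth arrays of Rbp2 RIP-Cre and of the double knockout are the lowest.

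Snhg5, host of Snord50 snoRNAs, varied little. Probe set 10595614 read 8.03, 8.0 and 8.03 in Men1 RIP-Cre, 7.70, 7.8, 7.88 and 7.74 for the Rbp2 RIP-Cre arrays, 8.06, 7.69, 8.07 and 7.75 in the double knockout, 8.20, 7.96 and 8.06 in RIP-Cre, and 7.97, 8.06 and 8.28 in wt. The Rbp2 RIP-Cre arrays lay below all RIP-Cre and wt arrays, with a change of -0.29 against RIP-Cre (SE 0.11, limma adjusted p = 0.0836). The change was -0.05 (SE 0.12) in Men1 RIP-Cre and -0.18 (SE 0.11) in the double knockout, and neither passed.

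Counted over the 10 probe sets, 4 passed in Men1 RIP-Cre against RIP-Cre, against 47.3% of all probe sets. They were the 2 of Snhg11, which had been picked there, and the rising pair of Gas5. In Rbp2 RIP-Cre 2 of 10 passed, against 9.98% of all, and in the double knockout 2 of 10, against 30.4% of all. Both times these were the 10489235 and 10489239 probe sets of Snhg17, and since Snhg17 was picked in Rbp2 RIP-Cre and the comparisons share the RIP-Cre arrays, nothing is read from these counts. With 1 array left out at a time the count ran from 4 to 5 in Men1 RIP-Cre, from 0 to 3 in Rbp2 RIP-Cre, where it was 0 without RIP-Cre 2, RIP-Cre 3, Rbp2 RIP-Cre 1 or Rbp2 RIP-Cre 2, and from 0 to 6 in the double knockout, where RIP-Cre 3, double knockout 2 and double knockout 4 each took both Snhg17 calls away. Groups did not overlap at 8, 5 and 3 of the 10 probe sets in the 3 comparisons, against 60.2%, 25.9% and 37.7% of all. In RIP-Cre against wt 0 of 10 passed, as did 0% of all probe sets, with limma. At an unadjusted p under 0.05 there were 0 of the 10 and 1204 of all 35512. The largest difference there was 0.17 at 10489235 and 10489239 of Snhg17 (SE 0.50 and 0.30). In the double knockout 1 of 10 passed against Men1 RIP-Cre (0.67% of all). It was the Snhg11 probe set 10478066, picked on the Men1 RIP-Cre arrays, so nothing is read from that call. In the double knockout 0 of 10 passed against Rbp2 RIP-Cre (0.529% of all), where 2 of the 10 had an unadjusted p under 0.05, beside 3776 of all 35512. Against wt, 1 of 10 passed (26.5% of all), and 0 of 10 passed in the interaction of both losses (0.217% of all). In the interaction 4 of the 10 had an unadjusted p under 0.05, beside 11479 of all 35512. Probe sets of the picked Snhg11 and Snhg17 are among these 4, so nothing is read from that count. The median change of the 10 was -0.37, -0.26 and -0.25 in the Men1, the Rbp2 and the double knockout against RIP-Cre, beside -0.19, -0.11 and -0.13 for all probe sets. The 10 include the Snhg11 and Snhg17 probe sets, genes picked as large falls there, so nothing is read from these medians.

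**Figure D3:**
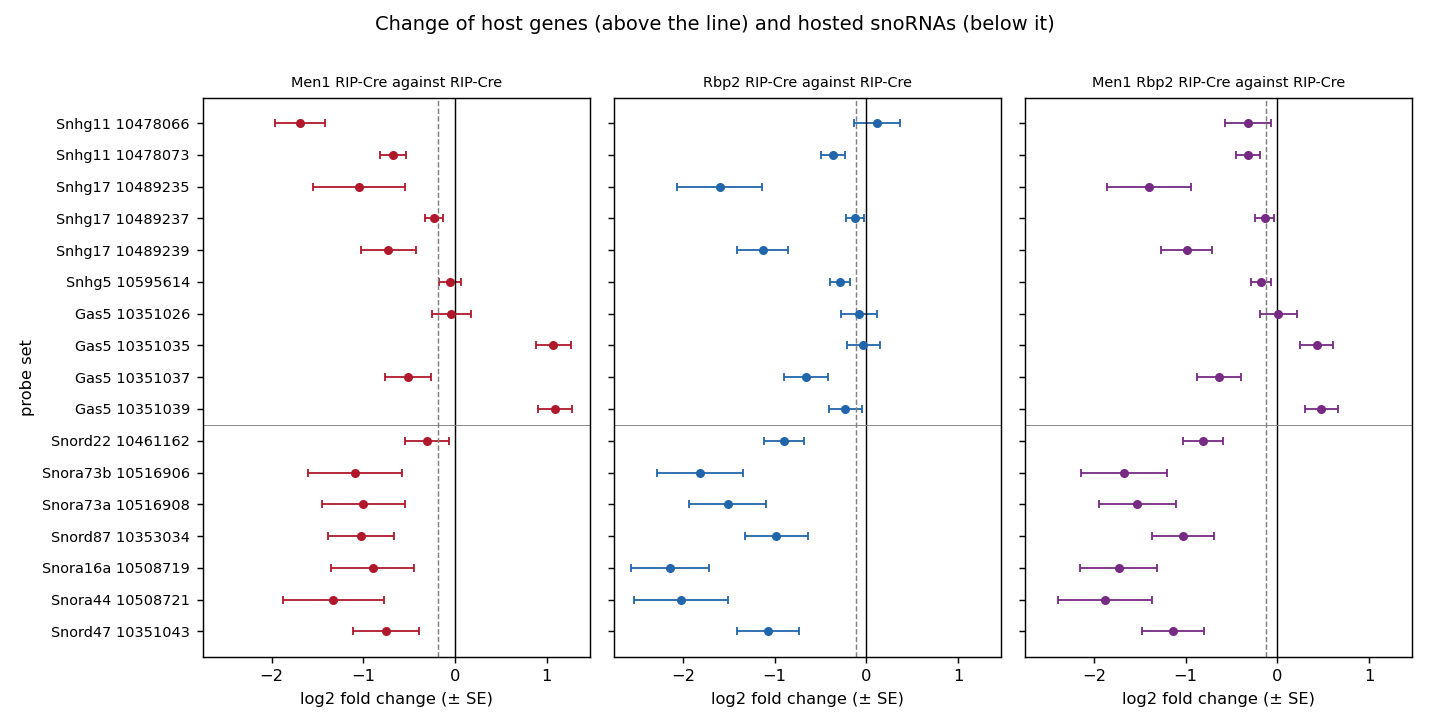
Log2 fold change (± SE) against RIP-Cre of each host gene probe set (above the horizontal line) and each hosted snoRNA (below it), in the Men1, the Rbp2 and the double knockout, with the dashed line at the median of all probe sets (-0.19, -0.11 and -0.13). The hosted snoRNAs lie below 0 in all 3 comparisons, from -0.31 to -2.14, while the host genes spread from -1.69 to 1.09.

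The annotation places 30 snoRNA genes inside the 9 hosts, and 7 of them, in 5 hosts, had a probe set of their own. In the double knockout against RIP-Cre all 7 passed, and in Rbp2 RIP-Cre 5 of 7, while in Men1 RIP-Cre 1 of 7 did. The share of all probe sets that passed was 30.4%, 9.98% and 47.3% in the same order, so the Men1 RIP-Cre count was below it. With the array median as a covariate 0 passed in each of the 3 knockouts, and without the 3 controls of highest median 2 passed in the double knockout and 0 in the others. The largest falls were those of Snora16a and Snora44, box H/ACA snoRNAs inside Snhg12. Snora16a read 9.05, 8.57, 10.16 and 8.25 in the Rbp2 knockout and 10.22, 8.84, 9.77 and 8.82 in the double knockout, against 11.26, 11.17 and 11.01 in RIP-Cre. No knockout array reached the RIP-Cre range, and it fell by 2.14 log2 in Rbp2 RIP-Cre (SE 0.42, limma adjusted p = 0.0188) and fell by 1.73 in the double knockout (SE 0.42, limma adjusted p = 0.0102). Snora44 fell by 2.02 (SE 0.51, limma adjusted p = 0.033) and fell by 1.88 (SE 0.51, limma adjusted p = 0.0167) in the same groups.

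Snora73a and Snora73b, the U17 pair inside Snhg3, fell by 1.51 and 1.81 in Rbp2 RIP-Cre (limma adjusted p = 0.0406 and 0.0348) and had log2 fold changes of -1.53 and -1.67 in the double knockout (limma adjusted p = 0.0171 and 0.019). They are near-identical copies, so their probe sets may read each other's RNA. Snord22 inside Snhg1 fell by 0.90 in the Rbp2 knockout (limma adjusted p = 0.0305) and fell by 0.81 in the double knockout (limma adjusted p = 0.0163). Snord87 inside Snhg6 fell by 1.03 in Men1 RIP-Cre (SE 0.36, limma adjusted p = 0.0316) and fell by 1.03 in the double knockout (limma adjusted p = 0.034), with -0.98 in Rbp2 RIP-Cre (limma adjusted p = 0.0699). Snord47, inside Gas5, read 9.20, 9.17 and 9.14 in Men1 RIP-Cre, 8.82, 9.44, 9.23 and 7.91 for the Rbp2 RIP-Cre arrays, 9.33, 8.59, 9.21 and 7.99 in the double knockout, 9.80, 10.23 and 9.72 in RIP-Cre, and 9.76, 9.47 and 10.02 in wt. It was below every RIP-Cre array in all 11 knockout arrays, and its fall of 1.14 passed in the double knockout (SE 0.34, limma adjusted p = 0.0241). In Men1 RIP-Cre Snord47 was at a lower value (-0.75, limma adjusted p = 0.101) in the same arrays in which the dim pair of Gas5 probe sets was high. The bright Gas5 probe set 10351037 was also at a lower value there (-0.51, limma adjusted p = 0.109), and 10351026 was at -0.04.

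The number of hosted snoRNAs called rested on single arrays. In Rbp2 RIP-Cre the 5 became 0 without RIP-Cre 3, Rbp2 RIP-Cre 1 or Rbp2 RIP-Cre 2, and 1 without RIP-Cre 2 or Rbp2 RIP-Cre 4. In the double knockout the 7 became 1 without RIP-Cre 3, 2 without double knockout 4 and 3 without double knockout 2. In Men1 RIP-Cre the 1 became 0 without RIP-Cre 2 or 3 or any of the 3 Men1 RIP-Cre arrays, and 2 or 3 without Rbp2 RIP-Cre 3, Rbp2 RIP-Cre 4 or double knockout 4. Against wt, 5 of 7 passed in the double knockout, and 0 did without wt 1, wt 3, double knockout 2 or double knockout 4. Without the fourth arrays 5 passed in Men1 RIP-Cre, 2 in the Rbp2 knockout and 5 in the double knockout against RIP-Cre. In Men1 RIP-Cre 6 passed with only the arrays compared in the fit and 0 after cyclic loess, and in the Rbp2 knockout 2 passed with wt as the control. With all arrays in the fit and no covariate, the 7 log2 fold changes were below 0 in each of these comparisons. With the array median as a covariate Snord22 moved from -0.31 to 0.13 in Men1 RIP-Cre against RIP-Cre.

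**Figure D4:**
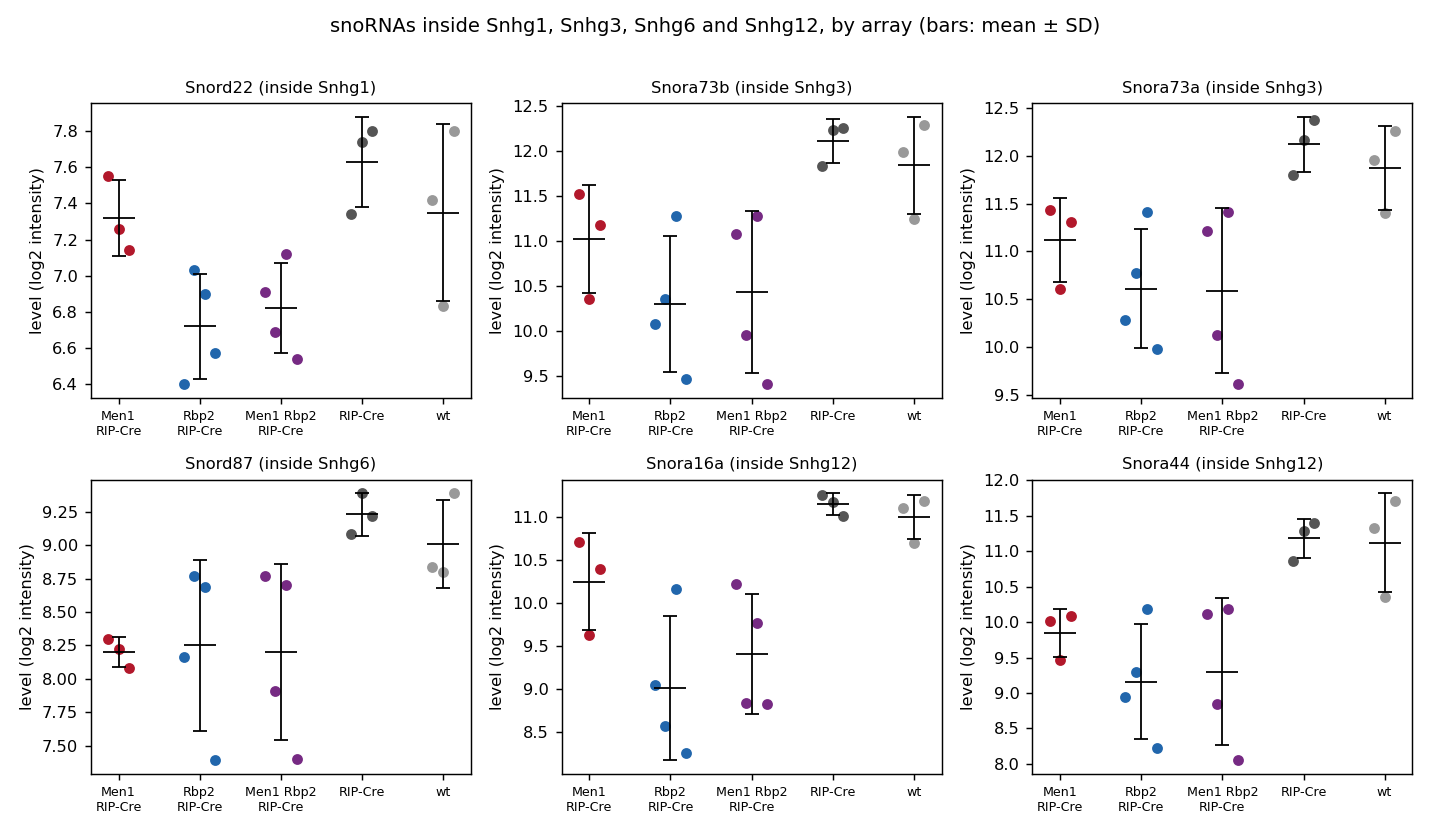
Level (log2, as deposited) of the 6 snoRNAs inside Snhg1, Snhg3, Snhg6 and Snhg12 in each array, by genotype, with points for arrays and bars for mean ± SD. Rbp2 RIP-Cre 4 and double knockout 4 are at or near the bottom of each panel, and wt 2 is the lowest wt array in each.

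Of the 53 single-gene snoRNA probe sets outside these hosts (47 genes), 16 fell and 5 rose in Men1 RIP-Cre, 23 fell in Rbp2 RIP-Cre, and 32 fell and 3 rose in the double knockout, with median changes of -0.52, -0.72 and -0.80. In Men1 RIP-Cre the share that fell is near that of all probe sets. With the 7 hosted ones there were 60 snoRNA probe sets. Among the 23 box H/ACA probe sets 6, 14 and 20 fell, with medians of -0.83, -1.12 and -1.16, and among the 33 box C/D probe sets 9, 12 and 17 fell, with medians of -0.44, -0.69 and -0.71. The share of all probe sets that fell was 30.5%, 4.73% and 17.3%, and the share that rose was 16.9%, 5.25% and 13.1%. The median level of these 60 probe sets was 8.55 to 8.67 in Men1 RIP-Cre arrays, 7.98 to 8.72 in Rbp2 RIP-Cre, 8.0 to 8.82 in the double knockout, 9.15 to 9.26 in RIP-Cre and 8.79 to 9.47 in wt. No knockout array reached the RIP-Cre range.

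At 10489235 and 10489239 Snhg17 was low in the arrays in which snoRNAs were low, whereas 10489237 read between 8.83 and 9.34 in all 17 arrays. The 4 arrays with the lowest snoRNA median, Rbp2 RIP-Cre 4, double knockout 4, double knockout 2 and Rbp2 RIP-Cre 1, were also the 4 with the lowest Snhg17 level at 10489235. With the snoRNA median of each array as a covariate, the Rbp2 RIP-Cre difference from RIP-Cre became -0.29 at 10489239 and -0.17 at 10489235, and the double knockout difference from wt became -0.18 and -0.15. The Men1 RIP-Cre difference in Snhg11 was -1.23 at 10478066 under the same covariate, and the double knockout lay 1.47 above Men1 RIP-Cre. The rises of Gas5 in Men1 RIP-Cre were 0.96 at 10351035 (limma adjusted p = 0.0278) and 1.08 at 10351039 (limma adjusted p = 0.0186), while the change at 10351037 was 0.10 (limma adjusted p = 0.668). The snoRNA median itself differs between knockout and RIP-Cre arrays, so in these comparisons genotype and snoRNA level cannot be told apart.

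**Figure D5:**
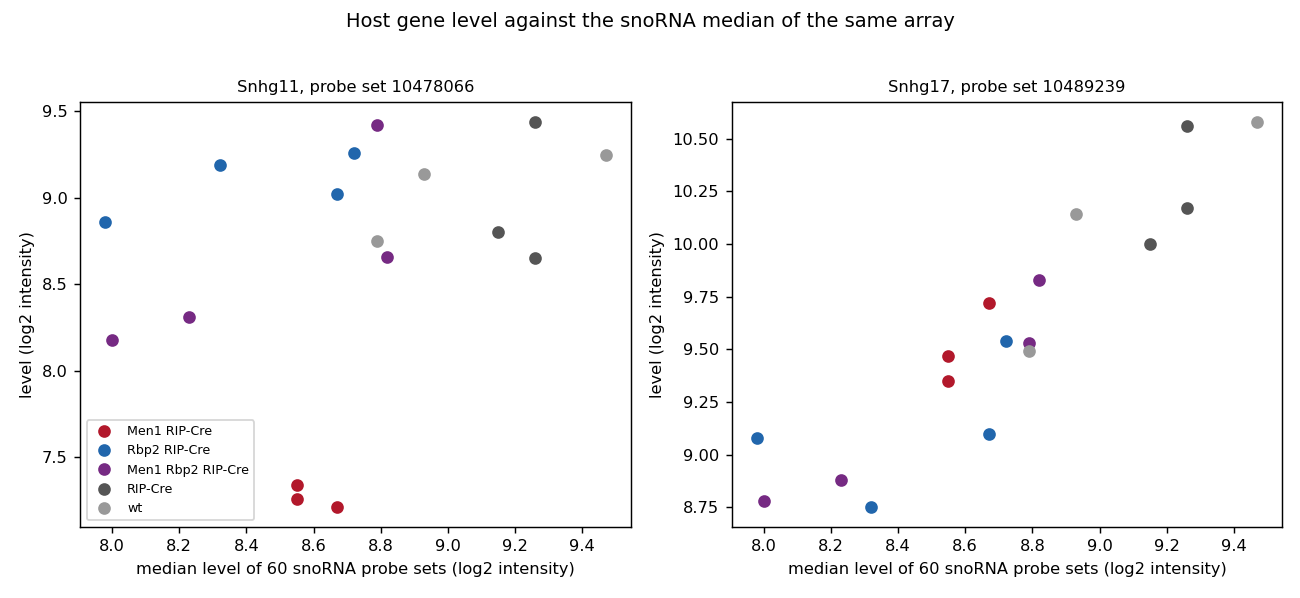
Level (log2, as deposited) of Snhg11 10478066 (left) and Snhg17 10489239 (right) against the median of the 60 snoRNA probe sets in the same array, 1 point per array, coloured by genotype. Snhg17 rises with the snoRNA median across the 17 arrays, whereas the 3 Men1 RIP-Cre arrays lie at 7.21 to 7.34 for Snhg11 at snoRNA medians of 8.55 to 8.67.

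Genes with the most similar pattern were ranked by Pearson r of log2 level over the 17 arrays, as a description of arrays that share their processing and their genotypes. For Snhg11 10478066 these were Scn3a (0.94), a voltage-gated sodium channel gene, Plekha2 (0.94), Hap1 (0.93), Cyb5rl (0.93) and Mrpl24 (0.93). Scn3a averaged 6.49 in Men1 RIP-Cre arrays, 8.57 for the Rbp2 knockout, 7.88 in the double knockout, 8.11 in RIP-Cre and 8.22 in wt. For Snhg17 10489239 they were the snoRNA genes Snora69 (0.97), Snora62 (0.96) and Snora21 (0.96), the host gene Snhg15 (0.96) and Fam219b (0.96). After cyclic loess normalization none of these 5 stayed among the first 5 for Snhg17, although their r was still 0.95 to 0.97, and Plekha2 and Mrpl24 did stay for Snhg11.

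Of 14 other non-coding snoRNA hosts, 4 had a probe set of their own. Snhg15 read 8.80, 8.70 and 8.77 in Men1 RIP-Cre, 8.28, 8.62, 9.0 and 8.78 for the Rbp2 RIP-Cre arrays, 8.92, 8.41, 9.03 and 8.25 in the double knockout, and 9.57, 9.42 and 10.06 in RIP-Cre. It fell by 0.93 (limma adjusted p = 0.00872), 1.01 (limma adjusted p = 0.026) and 1.03 (limma adjusted p = 0.00701) in these knockouts, and all knockout arrays lay below RIP-Cre. Rian, a maternally expressed imprinted host of box C/D snoRNAs, rose by 1.63 in Men1 RIP-Cre (SE 0.34, limma adjusted p = 0.0028) and by 1.40 in the double knockout (SE 0.32, limma adjusted p = 0.00751), but wt 2, at 8.55, was also high beside 7.29 and 7.17 in the other wt arrays. Snhg16 and Dancr did not pass in any of the 3 comparisons.

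Of 16 measured genes next to the hosts, 2 rose and 4 fell in Men1 RIP-Cre (47.3% of all probe sets passed there), 2 rose in Rbp2 RIP-Cre (9.98%), and 2 rose and 1 fell in the double knockout (30.4%). In each knockout that share was near or below the share of all probe sets. Ralgapb, on the far side of Snhg11 and a subunit of a Ral GTPase-activating complex, rose by 0.38 in Men1 RIP-Cre (limma adjusted p = 0.00268), in which Snhg11 was lower. Lbp, on the far side of Snhg17, did not pass in any of the 3 comparisons. Slc3a2, the amino acid transporter subunit beside Snhg1, rose by 0.91, 0.65 and 0.57 in the Men1, the Rbp2 and the double knockout (limma adjusted p = 0.00107, 0.026 and 0.0122).

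Of 22 probe sets of 18 snoRNP protein genes, 6 rose and 4 fell in Men1 RIP-Cre, 4 rose in the Rbp2 knockout and 5 rose in the double knockout, with medians of 0.05, 0.00 and 0.01. The share of all probe sets that passed was 47.3%, 9.98% and 30.4%. With 1 array left out at a time the number that rose ran from 4 to 7 in Men1 RIP-Cre, 0 to 5 in the Rbp2 knockout and 4 to 6 in the double knockout, and the number that fell in Men1 RIP-Cre from 2 to 5. In Men1 RIP-Cre Nop10 (1.30, limma adjusted p = 0.00134) and Dkc1 (0.65, limma adjusted p = 0.00384), both of the H/ACA particle, rose, and the assembly factors Pih1d1 (-0.39, limma adjusted p = 0.0111) and Ruvbl2 (-0.30, limma adjusted p = 0.0149) fell. Snu13, a core protein of the C/D particle, rose by 0.78 and 0.79 at its probe sets in the double knockout (limma adjusted p = 0.00509 and 0.00555). Of 25 probe sets of 16 genes of ribosomal RNA synthesis and the nucleolus, 10 rose and 4 fell in Men1 RIP-Cre, 1 rose in Rbp2 RIP-Cre, and 3 rose and 3 fell in the double knockout. With 1 array left out at a time, 2 to 11 rose and 2 to 4 fell in Men1 RIP-Cre, and 0 to 4 rose and 0 to 5 fell in the double knockout. Among them Rrn3, an initiation factor of RNA polymerase I, rose by 0.62 in Men1 RIP-Cre (limma adjusted p = 0.00272), and Ubtf, another polymerase I factor, fell by 0.32 (limma adjusted p = 0.0077).

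Of 10 nonsense-mediated decay genes, the pathway that degrades spliced host RNA, 2 fell in Men1 RIP-Cre, 1 in the Rbp2 knockout and 2 in the double knockout. The 2 were Smg9 (-0.46, limma adjusted p = 0.00223 in Men1 RIP-Cre) and Upf2 (-0.25, limma adjusted p = 0.0386). Of all probe sets 30.5%, 4.73% and 17.3% fell in the same comparisons, and in Men1 RIP-Cre the count was below that share. Of 16 probe sets of 11 translation factor genes whose messages also start with the oligopyrimidine, 10 rose and 1 fell in Men1 RIP-Cre, 7 rose in Rbp2 RIP-Cre, and 12 rose and 1 fell in the double knockout, with medians of 0.46, 0.52 and 0.65. Of all probe sets 16.9%, 5.25% and 13.1% rose in these comparisons. Eef1a1, the elongation factor, rose by 0.71 in Men1 RIP-Cre (limma adjusted p = 0.00361), Pabpc1, the poly(A)-binding protein, by 0.64 (limma adjusted p = 0.00193), and Eef1d fell by 0.40 (limma adjusted p = 0.00383). With 1 array left out at a time the number that rose ran from 2 to 12 in Men1 RIP-Cre, 0 to 10 in the Rbp2 knockout and 5 to 14 in the double knockout. This list averaged 10.57 to 11.36 in all arrays, in the bright range where all probe sets shifted by 0.20 to 0.22, and the part of that shift in the list was not tested.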

How the data were processed

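RNA of pancreatic islets was hybridised to 1-colour Affymetrix arrays, 1 array per sample, in the 5 genotypes of the labels. The deposited table holds 1 log2 value per probe set and array; for software, background correction and normalization the entry is "not given in the sources used here". Precision is limited by how few arrays a group has. Probe sets were named through the platform's annotation, of which 21789 name 1 gene, 1621 several and 12102 none, with symbols updated through the RefSeq GRCm38.p6 gene table. The members and gene lists were chosen with earlier results of these data known.

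All 35512 probe sets were fitted together over all 17 arrays with limma 3.58.1 in R 4.3.3 (lmFit and eBayes, 1 mean per genotype), and a difference was called at a Benjamini-Hochberg adjusted p under 0.05. Tables used numpy 2.4.6 and pandas 2.3.3. Every member was named, of each gene list at most 4 probe sets per comparison, the top and bottom 2 by moderated t, the neighbours of members, and the 5 symbols with the highest Pearson r to the member. Deviations of same-numbered arrays of different genotypes correlated with r from -0.296 to 0.274 (10 of 31 pairs over 0.1, against 12 of 84 pairs of other numbers). Only for the double knockout and wt were all 3 pairs over 0.1 (0.155, 0.165 and 0.189). Numbers were taken as pairs there alone. That choice was made from these values, and wt 2 with double knockout 4, which differ in number, had 0.212. The block was fitted over all 17 arrays, so its repeat effects also draw on groups not taken as pairs. Its values stand beside that comparison as an alternative only. No 2 arrays were near-identical. In simulated data for Men1 RIP-Cre against RIP-Cre with 35512 probe sets, 72.5% of falls of 1 log2 and 1.5% of falls of 0.5 were recovered. Only 200 of the simulated probe sets were changed, whereas 47.3% were called in the data. The adjusted threshold is stricter when few probe sets change, so these rates do not tell which falls could pass in the data. Alternatives changed the normalization, filters, arrays, covariates and model, and 3 of the 30 were added after the data were seen.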

Additional observations from a re-analysis of the deposited data

Results flagged for a closer look

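At the Snhg11 probe set 10478073, Rbp2 loss went with opposite shifts depending on Men1. The double knockout arrays averaged 0.36 above the Men1 RIP-Cre arrays, whereas the Rbp2 RIP-Cre arrays were at -0.36 relative to RIP-Cre, and the difference between these shifts was 0.72. At the Snhg17 probe set 10489237 the shifts were 0.08 and -0.12, with a difference of 0.21. At both probe sets each array lay on that side of the mean of the group it was set against. The medians of all probe sets were 0.05 and -0.11 for the same shifts and 0.16 for their difference. Relative to these medians 10489237 stood at 0.04, -0.01 and 0.04, so its shifts were near those of all probe sets. The values at 10478073 were 0.31, -0.25 and 0.56 relative to the same medians. Neither difference passed limma's interaction test over all probe sets, and nothing is read from that test because the arrays on which these genes were picked enter it. In the 34 groups of 4 arrays examined, no single array stood apart by Dixon's criterion, which chance meets in about 1 of 20 groups.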

How the results depend on the processing

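Of 3872 values of member and hosted snoRNA probe sets over 30 alternatives, 3447 kept their direction and side of the threshold, 203 lost a call, 96 gained one and 126 without a call moved, while no called value changed sign. Of the 10 host gene probe sets, 4 passed in Men1 RIP-Cre against RIP-Cre; this was 7 with only the arrays compared in the fit, 7 with a replicate block and 1 with the array median as a covariate. In Rbp2 RIP-Cre the 2 became 0 with wt as control, 5 with both controls pooled, 1 with only the arrays compared, 1 with cyclic loess, and 0 with the array median or the snoRNA median as a covariate, without the 3 controls of highest median, and without the 2 arrays of lowest snoRNA median. In the double knockout against RIP-Cre the 2 became 1 with wt as control, 5 pooled, 1 with only the arrays compared, 4 with single-gene probe sets, 4 with quantile normalization, 5 with cyclic loess, and 0 under the same 2 covariates and 2 omissions. Against Men1 RIP-Cre the 1 became 0 with only the arrays compared. Against Rbp2 RIP-Cre the 0 became 1 with single-gene probe sets, quantile normalization or cyclic loess. Against wt the 1 became 0 with only the arrays compared, 2 with the replicate block, 2 without low levels, 2 with single-gene probe sets, 2 with quantile normalization, 3 with cyclic loess, and 0 under the same covariates and omissions. The interaction count of 0 (4 at an unadjusted p under 0.05, limma) became 2 with pooled controls and 1 with single-gene probe sets. Leaving out 1 array at a time gave 4 to 5 in Men1 RIP-Cre, 0 to 3 in Rbp2 RIP-Cre and 0 to 6 in the double knockout against RIP-Cre, 0 to 1 against Men1 RIP-Cre and 0 to 4 against wt. The calls among all probe sets also varied widely over the alternatives. Against RIP-Cre they ran from 1020 to 20382 in Men1 RIP-Cre, 2 to 9047 in Rbp2 RIP-Cre and 174 to 15281 in the double knockout. The swings in host gene counts are therefore not read as a property of these genes. The omissions and the snoRNA covariate were chosen after seeing the data, and the causes were not tested beyond the fewer arrays or probe sets in the fit. The numbers were taken as pairs for the double knockout and wt alone, although the block was fitted over all 17 arrays. In the other comparisons the replicate block moved counts of host gene or hosted snoRNA probe sets by over 1.5 times for Men1 RIP-Cre against RIP-Cre alone, where hosted snoRNAs called went to 6, against 1 without it. Signal over background is not given, which limits the dim Gas5 probe sets most.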
